A study of Mus musculus with 8 samples.

Results

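10 genes that move drugs, bile pigments and bile acids across the hepatocyte membrane were followed through the injured livers of Fah-/- mice. They were taken by their symbols from a table of 22504 genes: Abcb1a, Abcb1b, Abcc1, Abcc2, Abcc3, Abcc4 and Abcg2, which encode ATP-driven efflux pumps, and Slco1a1, Slco1a4 and Slco1b2, which encode uptake carriers. All 10 symbols were found, 1 row each, and 9 of them reached an FPKM (fragments scaled by transcript length and library size) of 1 or more in 4 or more samples and were tested. Slco1a1 was not. Abcc1 reached 1 FPKM in all mice of the other groups and in none of C 8w, so it entered the test through the groups in which it was high.

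A hepatocyte takes up organic anions from the blood through carriers of the OATP family, which the Slco genes encode, conjugates many of them, and exports the products. Pumps of the canalicular membrane (P-glycoprotein, Mrp2 and Bcrp) send them into bile, whereas pumps of the membrane facing the blood (Mrp1, Mrp3 and Mrp4) return them to the circulation. In cholestasis and other liver injury, uptake carriers are known to be lowered and blood-facing pumps to be raised.

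The mice lacked fumarylacetoacetate hydrolase, the last enzyme of tyrosine breakdown, on the 129S4 background, and NTBC, which blocks an earlier step of that pathway, keeps such mice healthy at 7.5 mg/L in the drinking water. All 8 mice carried the Fah-/- genotype and all had been placed on 2.5% of the curative NTBC dosage, a regimen named moderate chronic liver injury (MCLI). The C 8w group (3 mice) had 8 weeks of MCLI, and the C 12w group (2 mice) had 12 weeks. The C 8w + A 4w group (3 mice) had 8 weeks of MCLI and then 4 weeks without NTBC, the severe acute liver injury (SALI) regimen, and is called the SALI group hereafter. Uninjured mice were not analysed here, and ages are not given in the labels. The tissue is labelled tumor in C 12w and liver otherwise, so that time on MCLI and tissue cannot be told apart.

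The summed FPKM of a sample lay between 324735 and 399342, and between 9797 and 10658 genes per sample reached 1 FPKM. FPKM keeps no read number, so the depth is unknown, but the spacing of the lowest values put the relative depth of the libraries between 0.914 and 1.05 of that of C 8w mouse 1. The SALI samples carry one series of codes and all other samples another, so code series and SALI cannot be told apart. Alb, Ppia and Gapdh, chosen after their values were seen, differed with the codes. Alb was listed at 0 in all 5 other samples and between 12946 and 16950 FPKM in the SALI samples. Ppia was at no more than 0.533 against at least 761, and Gapdh at no more than 0.247 against at least 68.2. Hepatocyte markers other than Alb were present in every sample, and although the labels' extraction text names retinas, only 1 of 9 retina markers reached 1 FPKM in any sample. Of the code series, the labels do not say more than that the samples differ in code. The p-values set group differences against the spread within groups, and cannot account for an offset between the code series. In bulk tissue, fewer cells of a type and less RNA per cell cannot be told apart.

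The 2 promoters below belong to the tested transporters with the largest rise and the largest fall after SALI on the log2(FPKM + 1) scale, Abcb1b and Slco1b2. Each is the RefSeq sequence of the 250 bases before the gene's start in GRCm38.p6, on the plus strand, at chr5:8797897-8798146 for Abcb1b and chr6:141629268-141629517 for Slco1b2. Capitals mark matches to 5 motifs searched on both strands.
Abcb1b: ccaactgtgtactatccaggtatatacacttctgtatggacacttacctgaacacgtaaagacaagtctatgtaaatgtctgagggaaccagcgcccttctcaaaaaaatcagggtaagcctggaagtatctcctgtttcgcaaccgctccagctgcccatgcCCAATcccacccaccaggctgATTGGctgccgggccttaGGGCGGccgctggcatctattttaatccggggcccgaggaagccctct
Slco1b2: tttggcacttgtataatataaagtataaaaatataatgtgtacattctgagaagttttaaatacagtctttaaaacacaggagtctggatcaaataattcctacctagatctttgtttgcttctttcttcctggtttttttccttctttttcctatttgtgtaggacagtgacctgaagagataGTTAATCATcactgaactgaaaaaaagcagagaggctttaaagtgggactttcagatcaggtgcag
The Abcb1b window held 2 CCAAT boxes (CCAAT), whose first bases lay 87 and 66 bases before the start, the second on the opposite strand, and a GC box (GGGCGG) at 48 bases. The Slco1b2 window held a single match to GTTAATNAT, the first part of the site of the hepatocyte factor HNF1, 66 bases before the start. Among 32851 promoter windows of the same length, 33.8% held CCAAT, 32.7% GGGCGG and 0.737% GTTAATNAT. The other motifs were the core of the antioxidant response element (TGACNNNGC, in 10.2% of windows) and that of the xenobiotic response element (GCGTG, in 28.2%). Windows were found for 8 of the 10 genes, 11 in all. Of these, the Abcc2 window held TGACNNNGC once, both Abcc4 windows held it once, and 1 Abcc4 window held GCGTG 2 times. CCAAT was also in the windows of Abcc2 and Slco1a4, and GGGCGG in windows of Abcg2 and Abcc4. The window of Abcb1a matched none of the 5 motifs. A match describes the letters and not the binding of a factor.

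In the C 8w liver, Abcc3 was the most abundant of the 10 transcripts, followed by Slco1b2, Abcc2 and Abcc4, all at 104.8 FPKM or more in every mouse. After SALI, which cannot be told apart from the code series, the order changed. Slco1b2, the main uptake carrier, lay at 11.8 to 52.5 FPKM against 126 to 142, Abcb1a was 4.37-fold and Abcb1b 4.82-fold higher by their means, and Abcc2 became the most abundant. Abcc1, the scarcest of the tested transcripts in C 8w, had a mean 5.77-fold higher, given as a description since it entered the test through its high groups. Abcc1 was also higher in C 12w tumors than in C 8w, again as a description only. In these tumors, Abcb1b was called higher and Slco1b2 and Abcc3 lower than in C 8w. None of these calls was kept when C 8w mouse 1 or mouse 2 was left out, and the 2 tumors differed from each other in several transporters.

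**Figure D1:**
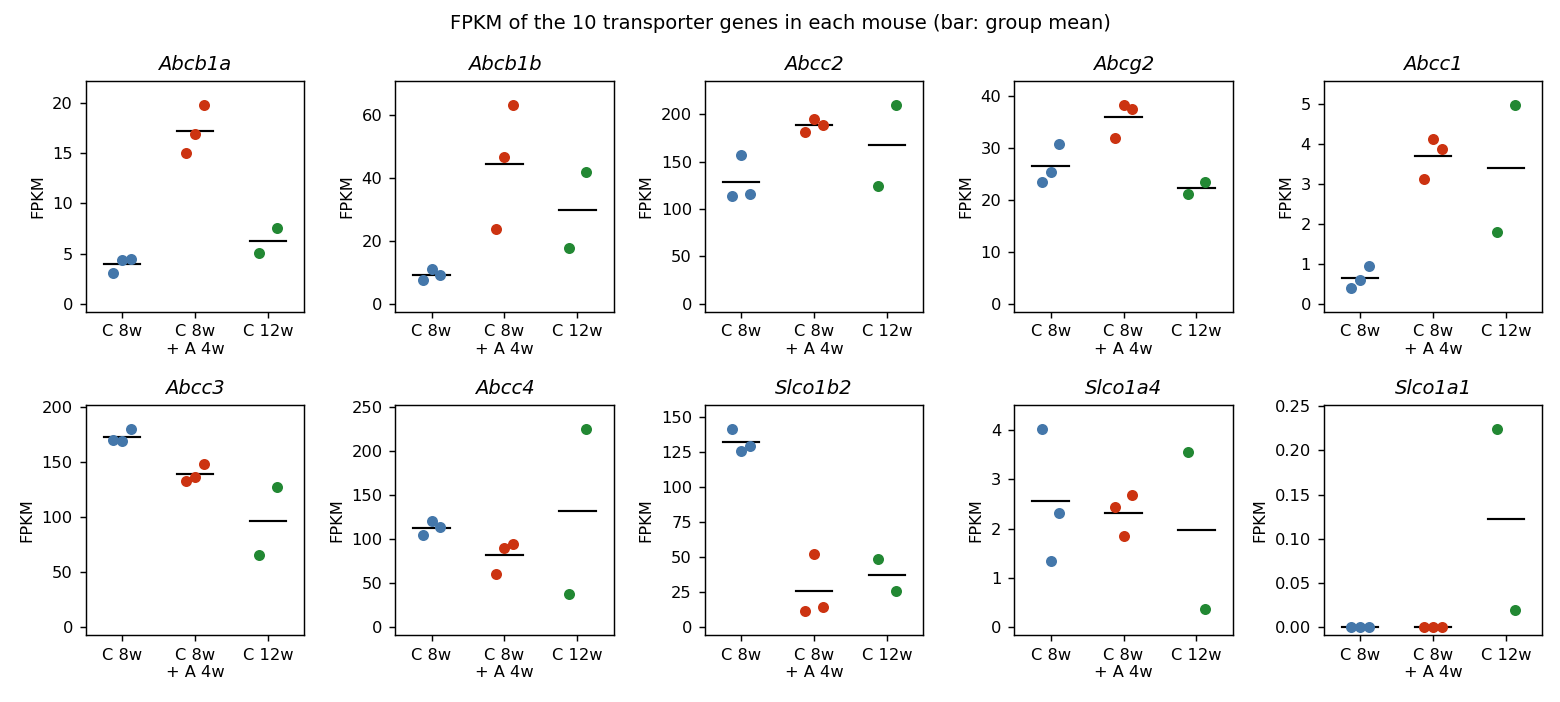
FPKM of each of the 10 transporters in every mouse, by group, with each point a mouse and the bars group means. The SALI mice lie above all C 8w mice for Abcb1a, Abcb1b and Abcc1 and below them for Slco1b2, and the 2 C 12w points of Abcc4 lie on opposite sides of C 8w.

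The model of limma was fitted to log2(FPKM + 1) of 10244 genes, all 8 samples together, and p-values were adjusted over these genes by the Benjamini-Hochberg method. Differences are given on this scale, which understates the change of scarce transcripts, and a transcript was called higher or lower at an adjusted p under 0.05. After SALI, against C 8w, 4 of the 9 tested transporters were called higher and 1 lower, and their median difference was 0.43. Of all genes tested, 39.4% were called, 25.3% higher and 14.1% lower, with a median difference of 0.12. The 2 groups did not overlap for 8 of the 9 transporters and for 61.4% of all genes. Abcc1 is among the transporters counted and had entered the test through its high groups.

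Between C 12w and C 8w, 2 transporters were called higher, Abcc1 among them, and 2 lower, with a median difference of -0.23. Of all genes, 19.2% were called, 12.2% higher and 6.98% lower, with a median of 0.12. The 2 groups did not overlap for 5 of the 9 transporters and for 54.5% of all genes. Between the SALI group and C 12w, 2 transporters were called, both higher after SALI, against 32.8% of all genes, 17.4% higher and 15.4% lower. The median difference of the 9 was 0.40 and that of all genes 0.01, and the groups did not overlap for 3 of the 9 transporters and for 52.3% of all genes. The 3 comparisons share samples pairwise, so they are not independent of one another. In the F test over the 3 groups, which called 49.7% of all genes, 6 of the 9 transporters were called: Abcb1a, Abcb1b, Abcc1, Abcc3, Abcg2 and Slco1b2. Abcc1 entered these tests through its high groups, so its calls are a description.

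Scaling changed the balance of these counts over all genes. The share of higher calls was 64.2% after SALI against C 8w, and 46.7% with median-ratio scaling, 53.5% with scaling to the same total and 47.1% with quantile normalization. For C 12w against C 8w it was 63.6%, and 44.0%, 72.2% and 46.9% under the same settings, and for SALI against C 12w it was 53.1% and, with total scaling, 35.9%. Median-ratio scaling moved the median of all genes from 0.12 to -0.01 in both comparisons with C 8w. The directions of the transporters called in each comparison were kept under all 3 scalings, but Abcg2, Abcb1b, Slco1b2 and Abcc3 each lost a call under 1 or more of them, with the values given for each gene.

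**Figure D2:**
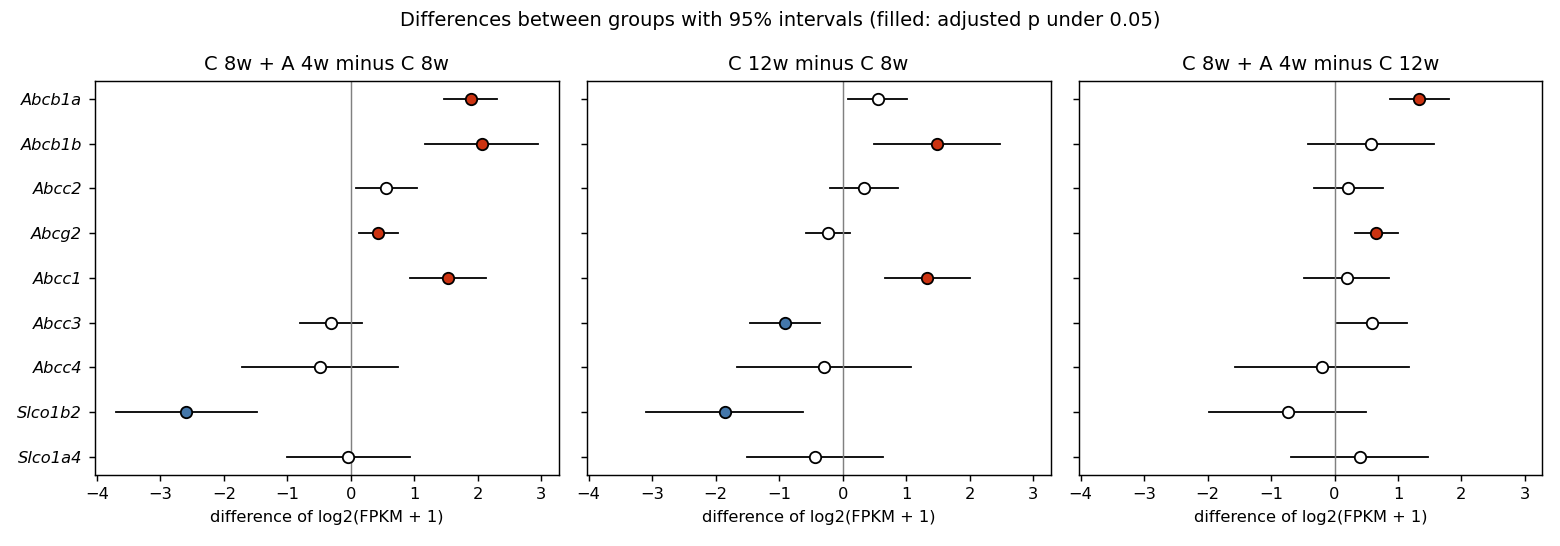
Difference in log2(FPKM + 1) of each tested transporter in the 3 comparisons, with 95% confidence intervals from the limma fit. Abcb1a, Abcb1b and Abcc1 lie to the right of 0 and Slco1b2 to the left after SALI against C 8w, and the Abcc4 and Slco1a4 intervals span 0 in all 3 comparisons.

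Abcb1a and Abcb1b encode the P-glycoproteins of rodents, which pump hydrophobic drugs out of the cell. Abcb1a was at 3.01, 4.33 and 4.47 FPKM in the 3 C 8w mice, at 15, 16.9 and 19.8 FPKM in the SALI mice, and at 5.03 and 7.55 FPKM in the C 12w mice. The 3 groups did not overlap, and the SALI group stood highest. The gap between the SALI mice and all others follows the sample codes, so code series and SALI cannot be told apart for Abcb1a. The mean was 3.94 ± 0.805 (SD, n = 3) in C 8w, that after SALI was 17.2 ± 2.41 (SD, n = 3), and the tumors had 6.29 ± 1.78 (SD, n = 2). Abcb1a was higher after SALI than in C 8w by 1.89 on the log2 scale (SE 0.181, adjusted p = 0.000119) and than in C 12w by 1.34 (SE 0.202, adjusted p = 0.00182). Its difference between C 12w and C 8w, 0.55, did not pass the test (adjusted p = 0.0842, 95% interval 0.09 to 1.02 before adjustment).

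Abcb1b, the paralog next to Abcb1a, was at 7.68, 10.99 and 9.11 FPKM in C 8w, at 23.8, 46.8 and 63.3 FPKM in the SALI group, and at 17.9 and 42.0 FPKM in C 12w. Both other groups lay above every C 8w mouse, while overlapping each other. Abcb1b was higher than in C 8w by 2.06 after SALI (SE 0.387, adjusted p = 0.00397) and by 1.48 in C 12w (SE 0.433, adjusted p = 0.0452). The C 12w difference was 0.89 without C 12w mouse 3, a fit that left 1 mouse in C 12w. The C 12w call was lost with median-ratio scaling (adjusted p = 0.0536), quantile normalization (0.0584), a floor of 0.1 (0.0525) or no filter (0.0980). It was also lost without any 1 of the C 8w mice (0.0839 to 0.134) and without SALI mouse 2 (0.0611). The difference between the SALI group and C 12w was 0.58 with a 95% interval from -0.41 to 1.56 (adjusted p = 0.341). Abcb1b made up 67.1% to 71.8% of the summed FPKM of both P-glycoprotein genes in C 8w, 61.4% to 76.2% after SALI, and 78.0% and 84.8% in C 12w.

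The 2 genes share sequence, and how the deposited values divide such fragments between them is not given in the sources used here. Of the 50-base windows of the Abcb1a transcripts, 22.5% occurred in another gene and 16.3% in Abcb1b, and 12.8% of the Abcb1b windows occurred in another gene. Each value of the pair is therefore uncertain. In the RefSeq annotation of GRCm38.p6, the protein-coding gene that follows Abcb1a and Abcb1b is Abcb4, the phosphatidylcholine flippase of the canaliculus, chosen after its values were seen. Abcb4 was between 65.0 and 71.6 FPKM in C 8w, between 90.0 and 103 after SALI, and at 95.3 and 54.5 in C 12w. Its difference after SALI, 0.47 (SE 0.193), was not called (adjusted p = 0.0847).

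Abcc2 encodes Mrp2, the canalicular pump of bilirubin glucuronides and other conjugates. It was at 113, 157 and 116 FPKM in C 8w, at 181, 195 and 189 FPKM after SALI, and at 124 and 210 FPKM in C 12w. All 3 SALI mice lay above the C 8w mice, whereas 1 C 12w mouse lay within C 8w and the other above all mice. The difference after SALI was 0.56 (SE 0.211) and did not pass the test in the fit of all samples (adjusted p = 0.0636). It passed when only the 2 groups were fitted (adjusted p = 0.0125). Against C 8w, the C 12w difference was 0.34 with a 95% interval from -0.20 to 0.88.

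Abcg2 encodes Bcrp, a canalicular pump of sulfate conjugates, urate and many drugs. It was at 23.5, 25.3 and 30.8 FPKM in C 8w, at 32.0, 38.4 and 37.7 FPKM after SALI, and at 21.2 and 23.5 FPKM in C 12w. Abcg2 was therefore highest in every mouse after SALI, with a small gap to C 8w. It was called higher after SALI than in C 8w, by 0.43 (SE 0.134, adjusted p = 0.0329), and than in C 12w, by 0.66 (SE 0.150, adjusted p = 0.0109). The first call was lost under median-ratio (adjusted p = 0.0993), total (0.123) and quantile scaling (0.0640) and when any of 4 single mice was left out (C 8w mouse 1 or 2, SALI mouse 2 or 3), and the second under total scaling (adjusted p = 0.0648).

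Summed over the 4 canalicular genes, C 8w mice had 147 to 198 FPKM, SALI mice 252 to 309, and the C 12w mice 169 and 283. Abcc2 took most of the sum in every mouse, between 61.0% and 79.4%. Its share was between 72.3% and 79.4% in C 8w and between 61.0% and 71.9% after SALI.

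Abcc3 encodes Mrp3, which exports glucuronides to the blood. It was the steadiest of the abundant transporters in C 8w, at 170, 169 and 181 FPKM, and lay at 133, 137 and 149 FPKM after SALI and at 66.2 and 128 FPKM in C 12w. The 3 groups did not overlap, and the levels ran from C 8w down to C 12w. Against C 8w, Abcc3 was called lower in C 12w, with a difference of -0.91 (SE 0.242, adjusted p = 0.0347). Leaving out either C 12w mouse moved it to -0.44 or -1.37. The call was lost with total scaling (adjusted p = 0.0668), with quantile normalization (0.121), with no filter (0.0671) and with only the 2 groups fitted (0.0792). It was also lost without any 1 of the C 8w mice (0.0860 to 0.101) and without SALI mouse 3. The difference after SALI, -0.31 (SE 0.216), was not called in the fit of all samples (adjusted p = 0.282) but was with only the 2 groups fitted (adjusted p = 0.0342). Between SALI and C 12w it was 0.59 (adjusted p = 0.0926).

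Abcc4 encodes Mrp4, a pump of bile acids, cyclic nucleotides and sulfated steroids. It was at 105, 121 and 114 FPKM in C 8w, at 60.8, 89.6 and 94.8 FPKM after SALI, and at 37.5 and 226 FPKM in C 12w. The SALI mice all lay below C 8w, and the 2 tumors lay below and above every other mouse. No comparison called Abcc4 in the fit of all samples, with differences of -0.49 (SE 0.537) after SALI and -0.29 (SE 0.600) in C 12w against C 8w, and of -0.20 between SALI and C 12w. With only C 8w and the SALI group fitted, the same -0.49 was called lower (adjusted p = 0.0441). Against C 8w, the C 12w difference was 0.99 without C 12w mouse 2 and -1.57 without C 12w mouse 3, so that its direction rested on 1 tumor. Each of these fits left 1 mouse in C 12w, so no test is read from them.

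Abcc1 encodes Mrp1, a pump of glutathione conjugates that the healthy adult hepatocyte holds at a low level. It was at 0.390, 0.601 and 0.935 FPKM in C 8w, at 3.11, 4.13 and 3.87 FPKM after SALI, and at 1.81 and 4.98 FPKM in C 12w. All 5 mice of the other groups lay above the C 8w mice. The fitted difference from C 8w was 1.52 (SE 0.262) after SALI and 1.33 (SE 0.293) in C 12w. Both passed the threshold, but Abcc1 was tested only because of the groups in which it was high, so these differences are a description and no test is read from them. Between SALI and C 12w it differed by 0.19 with a 95% interval from -0.48 to 0.86.

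The 3 blood-facing genes summed to 275 to 296 FPKM in C 8w, 197 to 247 FPKM after SALI, and 106 and 358 FPKM in C 12w. Abcc3 and Abcc4 made up nearly all of it, and Abcc1 added at most 4.98 FPKM. Abcc4 took 38.1% to 41.6% of the sum in C 8w, 30.9% to 38.9% after SALI, and 35.6% and 63.0% in the C 12w mice.

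Slco1b2 encodes the main hepatocyte uptake carrier for bilirubin, statins and other organic anions. It was at 142, 126 and 129 FPKM in C 8w, at 11.8, 52.5 and 14.8 FPKM after SALI, and at 48.6 and 26.3 FPKM in C 12w. Every mouse of the other groups lay below every C 8w mouse. The mean was 132 ± 8.32 (SD, n = 3) in C 8w, that after SALI was 26.4 ± 22.7 (SD, n = 3), and the tumors had 37.5 ± 15.8 (SD, n = 2). Slco1b2 was called lower than in C 8w after SALI, with a difference of -2.59 (SE 0.485, adjusted p = 0.00389), and in C 12w, with one of -1.86 (SE 0.542, adjusted p = 0.0454). The C 12w difference was -1.43 without C 12w mouse 3, a fit that left 1 mouse in C 12w. The C 12w call was lost with quantile normalization (adjusted p = 0.0529), a floor of 0.1 (0.0528) or no filter (0.0994). It was also lost without any 1 of the C 8w mice (0.0994 to 0.124) and without SALI mouse 3 (0.0632).

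Within the SALI group, mouse 2 held the highest Slco1b2 level, 52.5 FPKM against 11.8 and 14.8. The same mouse held the highest summed level of 8 macrophage markers, 438 FPKM, where the other mice of that group had 137 and 123, and the highest of Cyp1a1, at 92.4 FPKM against 32.8 and 27.5. Whether these go together was not tested. Between SALI and C 12w the difference in Slco1b2 was -0.74 with all mice, with a 95% interval from -1.97 to 0.50 (adjusted p = 0.331). It was -1.37 without this mouse, which was singled out for its high value, so no test is read from that difference.

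Slco1a4 encodes a carrier of bile acids, steroid conjugates and cardiac glycosides. It was at 4.02, 1.35 and 2.31 FPKM in C 8w, at 2.43, 1.86 and 2.69 FPKM after SALI, and at 3.56 and 0.382 FPKM in C 12w. The groups overlapped in all comparisons, and Slco1a4 was called in none of them. After SALI the difference from C 8w was -0.04 with a 95% interval from -1.003 to 0.93.

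Slco1a1, a carrier known to be abundant in the liver of adult male mice, was listed at 0 in all 3 C 8w and all 3 SALI mice. It was listed at 0.225 and 0.0199 FPKM in the C 12w mice. Since Alb was also listed at 0 in 5 samples, no fold change is given. Of the windows of Slco1a1 and Slco1a4, 1.64% and 1.61% occurred in another gene, mostly in one another and in Slco1a5 and Slco1a6. Slco1b2 alone made up 97.2% to 98.9% of the summed FPKM of the 3 uptake carriers in C 8w, 82.9% to 96.6% after SALI, and 92.8% and 98.5% in C 12w, and no Slco1b2 window was shared.

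**Figure D3:**
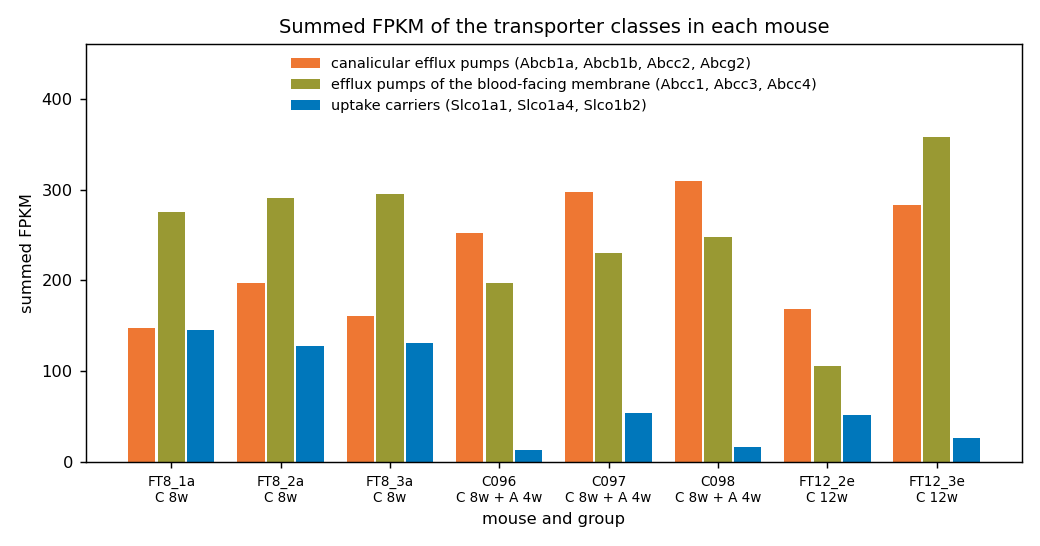
Summed FPKM of the 4 canalicular pumps, the 3 blood-facing pumps and the 3 uptake carriers in each mouse, named by its label code, with C 8w on the left, the SALI group (C 8w + A 4w) in the middle and C 12w on the right. After SALI the canalicular sum lies above C 8w (252 to 309 against 147 to 198 FPKM) and the uptake sum below it (14.2 to 54.3 against 127 to 146 FPKM).

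The order of the levels, which FPKM allows since it is per length, shows the shift within the set. In C 8w the means ran Abcc3 (173 FPKM), Slco1b2 (132), Abcc2 (129), Abcc4 (113), Abcg2 (26.5), Abcb1b (9.26), Abcb1a (3.94), Slco1a4 (2.56) and Abcc1 (0.642). Of neighbours in this order, Slco1b2 and Abcc2, Abcc2 and Abcc4, and Abcb1a and Slco1a4 overlapped over the mice. After SALI they ran Abcc2 (188), Abcc3 (139), Abcc4 (81.8), Abcb1b (44.6), Abcg2 (36.02), Slco1b2 (26.4), Abcb1a (17.2), Abcc1 (3.70) and Slco1a4 (2.32). There every neighbouring pair from Abcc4 to Abcb1a overlapped, so that Abcb1b, at 23.8 to 63.3 FPKM, was not separated from Slco1b2, which it had been below in every C 8w mouse. In C 12w, Abcc2 (167), Abcc4 (132) and Abcc3 (96.9) led by their means, ahead of Slco1b2 (37.5) and Abcb1b (29.9). Of these neighbours, Abcc2 and Abcc4, Abcc4 and Abcc3, and Slco1b2 and Abcb1b overlapped. In C 12w mouse 2, Abcc4 (37.5 FPKM) lay below Slco1b2 (48.6).

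The 2 C 12w tumors differed from each other by more than most genes did in several transporters. Over all tested genes the median absolute difference between these mice was 0.29 on the log2 scale, against a median range of 0.20 over the C 8w mice and 0.29 over the SALI mice. Abcc4 was 6.01-fold higher in C 12w mouse 3 than in mouse 2, a difference of 2.56 that only 0.644% of genes matched or exceeded. Slco1a4 differed by -1.72, a size reached by 1.93% of genes, Abcb1b by 1.19 (4.68%) and Abcc1 by 1.09 (5.55%). Abcg2 differed by 0.14, less than most genes (73.7% reached that size). Mouse 3 was the higher for all 7 pumps and the lower for Slco1b2, Slco1a4 and Slco1a1.

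Bile duct markers differed between the same tumors. The summed level of 9 such markers was 356 FPKM in mouse 3, of which the secreted phosphoprotein gene Spp1 gave 311, and 36.4 FPKM in mouse 2, where C 8w mice had 13.5 to 18.7 and SALI mice 44.9 to 50.6. Of 6 tested markers, 4, Spp1, Sox9, Cldn4 and Epcam, were called higher in C 12w against C 8w, and Cldn4 and Epcam after SALI. Sox9, Cldn4 and Epcam were under 1 FPKM in every C 8w mouse and entered the test through the groups in which they were high, and the other 3 of the 9 were not tested, so these counts are a description only. Their part in the differences of the pumps was not tested. Of 9 tested hepatocyte markers, 2 were called higher and 4 lower after SALI against C 8w, and 1 each way in C 12w, beside 39.4% and 19.2% of all genes called in either direction. Macrophage markers summed to 137 to 176 FPKM in C 12w and 157 to 188 in C 8w, and endothelial markers to 33.0 to 38.3 in C 12w, 28.4 to 49.9 after SALI and 59.2 to 65.1 in C 8w. Stellate cell and fibroblast markers summed to 89.5 to 97.7 in C 8w, 93.1 to 152 after SALI and 75.6 to 87.5 in C 12w. Dcn gave the largest part of this sum, at 68.3 to 75.9 FPKM in C 8w and 48.1 and 40.5 in C 12w. Of 7 tested markers, 1 was called higher and 1 lower in C 12w against C 8w, and 0 higher and 1 lower after SALI. Col3a1 was called higher in C 12w, at 8.85 and 15.5 FPKM against 2.56 to 4.73 in C 8w. It was called lower after SALI, at 0.182 to 1.72 FPKM.

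**Figure D4:**
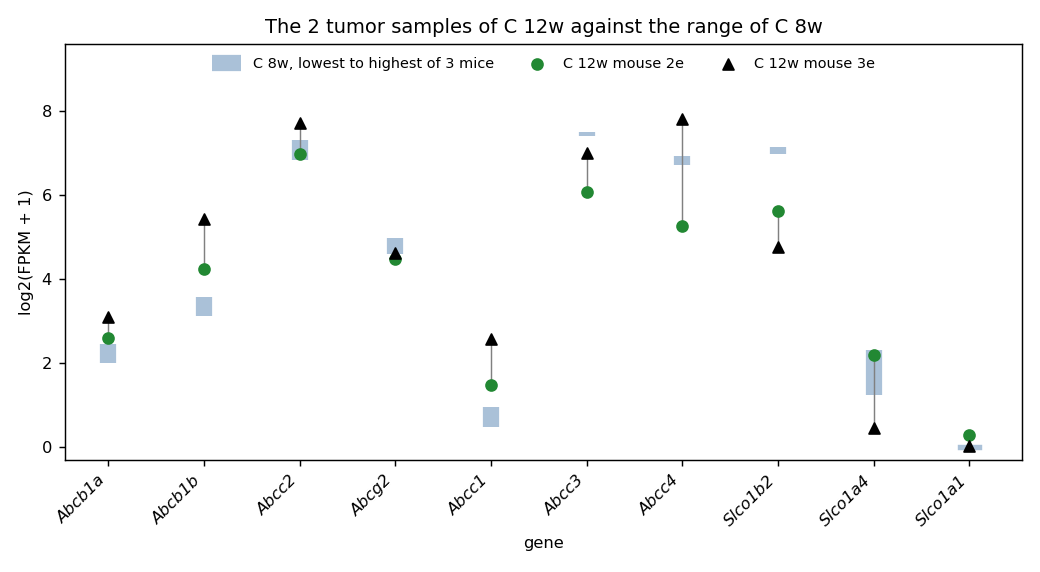
log2(FPKM + 1) of the 10 transporters in C 12w mouse 2 (circle, code 2e) and mouse 3 (triangle, code 3e), joined by a line, with a bar for the lowest to highest of the 3 C 8w mice. The line of Abcc4 is the longest, 2.56, and crosses the C 8w bar, while both points of Slco1b2 lie below their bar and both of Abcc1 above it.

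Abcb1a, Abcb1b and Slco1b2 stayed called after SALI against C 8w whichever mouse was left out, with differences between 1.75 and 1.98, 1.76 and 2.45, and -3.23 and -2.20. The counts that follow include Abcc1, which entered the test through its high groups. With 5 transporters called in the fit of all samples, 8 were called when only the 2 groups, or all samples but C 12w mouse 2 or mouse 3, were fitted. The count over all 10244 genes rose with it, from 4034 to 5186, 5189 and 5187. In C 12w against C 8w, the 4 calls became 0 without C 8w mouse 1 or mouse 2 (4 and 5 of the 9 at an unadjusted p under 0.05 by limma), 1 without C 8w mouse 3, 2 without SALI mouse 3, and 8 without C 12w mouse 2. Over all genes the 1962 calls became 677, 941, 720, 1411 and 3702 in the same order. With the shared label number as a replicate block, Abcb1b (adjusted p = 0.0988), Abcc1 (0.0810) and Abcc3 (0.193) lost their calls, and Slco1b2 alone kept its own. Between SALI and C 12w, the 2 calls became 4 without C 12w mouse 2 and 5 without mouse 3, where 3356 genes became 4214 and 3124.

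For the most abundant gene of each role, the tested genes with the nearest profile over the 8 samples were sought by the root mean square distance of centred log2(FPKM + 1) values. Abcc2, whose values spanned 0.88, was nearest to Son (0.0613), Gsk3b (0.0821) and Tnrc6a (0.0928). Abcc3 spanned 1.43 and was nearest to Eci1 (0.135), an enzyme of unsaturated fatty acid oxidation, Ugdh (0.145), which makes the sugar donor of glucuronidation, and Sugct (0.149). Slco1b2 spanned 3.48 and was nearest, at larger distances, to Ppp1r3b (0.454), a glycogen-targeting phosphatase subunit, Lipc (0.513), hepatic lipase, and Csrp3 (0.514).

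Other transporters of the hepatocyte were read from lists of related genes. Of 18 tested solute carriers of organic anions, cations and bile acids, 9 were called lower and 2 higher after SALI against C 8w, with a median difference of -0.73, and 5 lower and 1 higher in C 12w, with a median of -0.34, where 39.4% and 19.2% of all genes were called. The other 5 of the 23 listed were not tested. One of them, chosen after its values were seen, was Slc10a2, a sodium-dependent bile acid carrier, at 4.60 and 11.03 FPKM in C 12w, at most 0.0245 in C 8w and at most 0.202 after SALI. Slc10a1 encodes Ntcp, the sodium-dependent bile acid carrier of the blood-facing membrane. It fell from 236 to 280 FPKM in C 8w to 81.1 to 101 after SALI and to 128 and 59.9 in C 12w, with differences of -1.50 (adjusted p = 0.00231) and -1.52 (adjusted p = 0.0104). Slc29a1, a nucleoside carrier, was lower in both, by differences of -1.23 and -1.47. Slc51b, a subunit of the bile acid exporter of the blood-facing membrane, was at 2.47 to 5.37 FPKM after SALI against 0.728, 0.673 and 1.55 in C 8w. It entered the test mainly through the groups in which it was higher, so its call, counted above, is a description only. Slc51a of the same list was listed at 0 in every sample.

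Only 2 of 10 other Slco genes were tested. Slco2b1, a broad organic anion carrier, was lower after SALI, at 0.931 to 2.10 FPKM against 8.23 to 9.603 in C 8w (difference -2.04, adjusted p = 0.00125), and at 8.87 and 3.10 in C 12w. Slco2a1, a prostaglandin carrier, was lower after SALI than in C 12w, with a difference of -1.11 (adjusted p = 0.0178). Of 16 other ABC transporters, 4 were lower and 1 higher after SALI against C 8w, with a median of -0.21, and 1 was higher in C 12w, beside the same 39.4% and 19.2% of all genes. Abcc6, which serves ATP release, was at 1.05 to 1.204 FPKM after SALI against 5 to 7.35 in C 8w and 6.18 and 7.25 in C 12w (difference -1.75 to C 8w, adjusted p = 3.88e-05). Abcc9, a regulatory subunit of potassium channels, was higher by 0.84. Abcb11, the bile salt export pump, was at 29.3 to 65.7 FPKM against 76.2 to 82.3 (chosen after its values were seen, difference -0.89, adjusted p = 0.0776).

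Of 19 receptors and factors known to control transporter genes, 6 were lower and none higher after SALI against C 8w, with a median of -0.23, and 3 were lower in C 12w, with a median of -0.20, beside 39.4% and 19.2% of all genes called in either direction. Nr1i3, the constitutive androstane receptor, was lower in both, by differences of -1.31 and -1.95, but 63.6% of its windows occurred in another gene. Nr1h4, the bile acid receptor FXR, was at 20.9 to 27.2 FPKM after SALI against 38.03 to 40.2 in C 8w (difference -0.69, adjusted p = 0.0276). The liver X receptor gene Nr1h3 and the shared partner Rxra were also lower, by differences of -0.97 and -0.53. In C 12w, Cebpb (-1.26) and Foxo3 (-0.60) were lower than in C 8w.

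Genes that respond to these receptors and to Nrf2 moved in both directions. Of 13, 5 were higher and 1 lower after SALI against C 8w, with a median of 0.47, and 2 were higher and 3 lower in C 12w, with a median of -0.04. Over all genes, 39.4% and 19.2% were called. Srxn1, which restores oxidised peroxiredoxins, was at 693 to 782 FPKM after SALI against 132 to 213 in C 8w (difference 2.14, adjusted p = 6.78e-05). Hmox1, heme oxygenase, was higher after SALI by 1.98 and in C 12w by 1.11. Cyp1a1 was higher after SALI by 2.58, while Cyp1a2 was lower both after SALI and in C 12w, by differences of -2.65 and -2.36. Cyp4a10 and Cyp4a14, targets of PPAR alpha, were lower in C 12w, by differences of -2.62 and -2.42, with 29.8% of the Cyp4a10 windows shared.

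Phase II enzymes supply conjugates to these pumps. Of 20 tested, 10 were lower after SALI against C 8w and 6 in C 12w, with medians of -0.69 and -0.38, and none of the 20 was higher in either, where 39.4% and 19.2% of all genes were called. Sult1c2, counted as lower after SALI, was at 0.218 to 0.549 FPKM there. It entered the test through the groups in which it was high, so its call is a description. The other 2 of the 22 listed did not reach 1 FPKM in 4 samples. One of these, Ugt2b38, chosen after its values were seen, was at 6.42, 29.6 and 19.3 FPKM after SALI, at most 0.0398 in C 8w and at most 0.129 in C 12w, with 37.4% of its windows shared. Its split follows the sample codes, as that of Alb does, so code series and SALI cannot be told apart for it. Ugt2b1, a glucuronosyltransferase, was at 12.3 to 30.2 FPKM after SALI against 154 to 223 in C 8w (difference -3.08, adjusted p = 0.000225). Sult2a1, a steroid and bile acid sulfotransferase, fell by 2.48 after SALI and by 5.07 in C 12w, with 33.2% of its windows shared. Ugt1a1, which conjugates bilirubin, was lower in C 12w by a difference of -1.94, with 80.2% of its windows shared.

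Of 10 scaffold and trafficking genes for membrane transporters, 3 were higher and 1 lower after SALI against C 8w, with a median of 0.07, and 1 was higher in C 12w, where 39.4% and 19.2% of all genes were called. Rab11a and Rab11b, which recycle vesicles to the canaliculus, were higher by 0.41 and 0.63, and the syntaxin gene Stx3 by 0.69. Stx3 was at 0.330 to 0.439 FPKM in C 8w and entered the test through the groups in which it was higher. Slc9a3r1, a scaffold that binds membrane proteins, was lower by a difference of -0.41.

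Set against C 12w, the SALI mice had 7 of the 13 receptor markers called higher and none lower, with a median difference of 0.77, where 17.4% of all genes were called higher and 15.4% lower. Of the conjugating enzymes 3 were higher and 7 lower, with a median of -0.09, and of the solute carriers 2 were higher and 4 lower, with a median of -0.05. The lower calls include Sult1c2 and Slc22a30, at most 0.549 and 0.280 FPKM after SALI. Both entered the test through the other groups, so their calls are a description. Slc22a7, also called lower, was at 0.216, 1.35 and 0.278 FPKM after SALI. Among the other ABC transporters 1 was higher and 4 were lower, with a median of -0.30, and among the receptors and factors 3 were called each way. For the solute carriers (6 of 18), the ABC transporters (5 of 16) and the receptors and factors (6 of 19), the share called was close to the 32.8% of all genes. Cyp4a10 and Cyp1a1 were higher after SALI than in these tumors by 2.52 and 2.40, and Sult2a1 by 2.59. Of the Cyp4a10 and Sult2a1 windows, 29.8% and 33.2% were shared. Abcc6 was lower by a difference of -1.87 and Abca3, a lipid transporter, by one of -1.78.

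**Figure D5:**
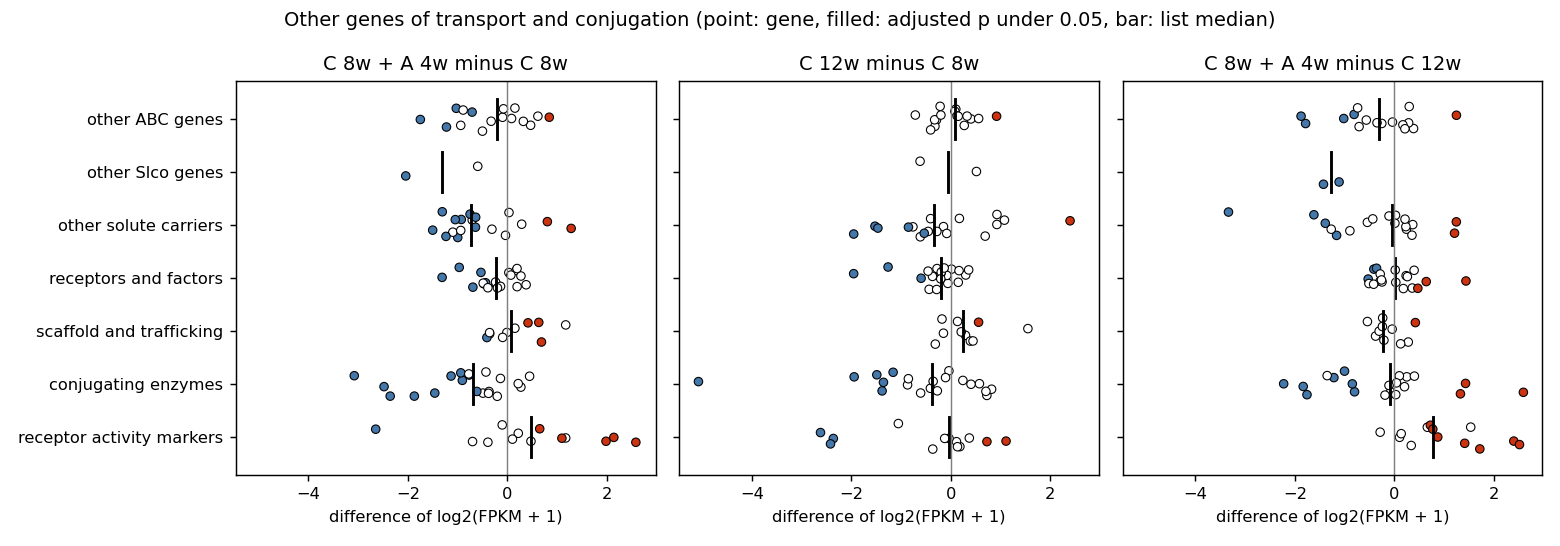
Differences in log2(FPKM + 1) of the genes in each list of related transporters, controlling factors, scaffolds, conjugating enzymes and receptor markers, with the median of each list. The solute carriers and the conjugating enzymes have medians of -0.73 and -0.69 after SALI against C 8w, and the receptor markers one of 0.47.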

How the data were processed

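RNA sequencing values of 8 Fah-/- mice were used, with groups taken from the sample labels. The authors deposited FPKM values, fragments scaled by gene length and mapped fragments, in 1 table of 22504 genes, 22314 with a symbol. The submitters' processing notes name Bowtie 0.12.2 and the genome build mm8. The quantifier and annotation are not given in the sources used here. The table held 0 columns of other samples.

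Genes with at least 1 FPKM in at least 4 of 8 samples (10244) were compared as log2(FPKM + 1) in R 4.3.3 with limma 3.58.1 (lmFit, eBayes with a trend), two-sided, with Benjamini-Hochberg adjustment over all of them and a threshold of 0.05. The fit was tested on simulated data. Shared sequence was counted as 50-base windows of GENCODE M21 transcripts, on either strand, found in another gene as well, with Python 3.11.15. The members and lists were chosen with earlier results of these data known. Besides the 10 transporters, the genes named were up to 4 per list and comparison, with the largest change among called genes whose groups did not overlap, and the 3 nearest profiles per role. Others are said to be chosen after their values were seen. Some results for single genes are left out.

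Replicate numbers 2 and 3 recur in C 8w and C 12w but belong to different mice. The alternatives were a pseudocount of 0.1, a floor of 0.1 or none, 3 scalings, no trend, only the 2 groups compared, genes with at most 2% shared sequence, a log2 limit of 1, the replicate block and each mouse left out. The crossed pairing was added after seeing the data.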

Additional observations from a re-analysis of the deposited data

How the results depend on the processing

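Over all genes, 4034 were called after SALI against C 8w, 1962 in C 12w against C 8w, 3356 for SALI against C 12w and 5090 in the F test. With at most 2% shared sequence the first 3 counts were 2194, 1241 and 1767 of the 6318 genes left, with a log2 limit of 1 they were 1128, 533 and 1177, and SALI against C 12w gave 1996 with only its 2 groups fitted. Leaving out single mice gave 2469 to 5189, 677 to 3702 and 2494 to 4214. Apart from the replicate block and the crossed pairing, the other settings kept these counts within 1.5 times.

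Of the transporters, 5, 4 and 2 were called. The counts against C 8w include Abcc1, which entered the test through its high groups. After SALI against C 8w there were 8 with only the 2 groups fitted, 3 of the 7 left with at most 2% shared sequence (Abcb1a and Abcb1b had to be dropped), and 4 to 8 without single mice. In C 12w against C 8w there were 2 with a floor of 0.1, 1 with no filter, 1 with quantile normalization, 2 with only the 2 groups fitted, and 0 to 8 without single mice. SALI against C 12w had 1 with total scaling, 1 with at most 2% shared sequence, 1 with a log2 limit of 1, and 2 to 5 without single mice.

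The replicate block, over the 4 mice numbered 2 and 3, called 252 genes and 1 transporter in C 12w against C 8w. The deviations of same-numbered mice correlated at -0.189 over 10244 genes, and the crossed pairing, chosen after seeing the data, called 16 genes and 0 transporters by limma (4 at an unadjusted p under 0.05).

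Quantile normalization turned Abcc2 between SALI and C 12w to -0.0702. Without single mice, differences that changed sign ranged as follows. Abcc4 ran from -1.57 to 0.99 in C 12w against C 8w and from -1.48 to 1.08 between SALI and C 12w. Abcc2 ran from -0.0326 to 0.72 and from -0.15 to 0.59, and Slco1a4 from -1.30 to 0.43 and from -0.46 to 1.26, in the same comparisons. Abcb1b ran from -0.0182 to 1.17 and Abcc1 from -0.35 to 0.74 between SALI and C 12w, and Slco1a4 from -0.30 to 0.24 after SALI against C 8w. The cause was not tested. Where a group was left with 1 mouse, that mouse was assumed to vary like the others, so the counts of such fits are only a description for that group. FPKM without counts limits statements on the scarcest transcripts, Abcc1, Slco1a4 and Slco1a1.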
